A study of Mus musculus with 12 samples.

Results

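The genes described here belong to the unfolded protein response and to protein folding in the endoplasmic reticulum (ER). They are a list of 41 genes chosen by function, and a gene was taken from the arrays where the platform annotation gives a probe set that symbol alone. Of the 41 genes, 40 have such a probe set (Syvn1 has none), out of 15964 genes with a probe set in all, and 38 passed the filter on dim probe sets (all but Calr and Eif2ak3), out of 12267 genes. MIN6 cells are an insulin-secreting line derived from an insulinoma of a mouse, and clone 4 is a single subclone taken by limiting dilution from parental cells of low passage. RNA of 4 populations was compared: clone 4 cells at 40 to 50 passages (C4-HP) and at 17 to 20 passages (C4-LP), and parental cells at 35 to 40 passages (Pr-HP) and at 17 to 20 passages (Pr-LP). All were grown in medium with 25 mM glucose, and the study calls C4-HP, C4-LP and Pr-LP responder cells because they kept glucose-stimulated insulin secretion, while Pr-HP had lost it. Each population has 1 array on each of the 3 chips (A, B and C) of an Affymetrix mouse array set, U74 version 2, so no value below has a replicate error, and anything particular to 1 culture or array cannot be told apart from its origin or passage.

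The ER folds proteins that enter the secretory pathway, and in β cells the largest part of this load is proinsulin. When unfolded proteins gather there, the membrane proteins Ire1 (Ern1), Perk (Eif2ak3) and Atf6 signal to the nucleus through the transcription factors Xbp1, Atf4 and cleaved Atf6. Xbp1 and Atf6 raise chaperones, folding enzymes and the degradation machinery, and Atf4 raises genes of amino acid supply and of the stress-induced arrest, among them Ddit3 (Chop).

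Intensities are in linear units, and medians of the 4 arrays of a chip lay between 213.7 and 215.5 on chip A, 161.9 and 162.7 on chip B and 92.8 and 93.2 on chip C. Values under the 20th percentile of a chip (67.3, 58.6 and 29.1 units) were raised to it before ratios were taken. Genes that define β cells were present in every population (Ins2 between 14770 and 15530 units, Iapp between 7444 and 9641). Pr-HP was the lowest population in 7 of 11 measured β-cell genes (27.7% of all genes). The study warns that array signals of the insulin genes might lie beyond the linear range. By quantitative RT-PCR it found Ins1 much lower in Pr-HP, and it reports a lower insulin content there. The summed intensity of 6 markers of α, δ and PP cells was 11802 in Pr-HP, against 4188 in C4-HP, 4463 in C4-LP and 2023.5 in Pr-LP, nearly all of the difference being in the glucagon gene Gcg. Of 12 markers of fibroblasts, endothelium and leukocytes, which summed to 4901 in Pr-HP, against 3329.5 to 3479 in the responder cells, Cd68 stood apart with 1785 units in Pr-HP, against 177 to 209.7 in the responder cells. Other leukocyte markers did not follow it, Ptprc and Lyz2 being under the floor in all populations and Adgre1 at 85.7 units in Pr-HP, against 74.8 to 88.1. The 8 acinar and duct markers summed to 4468 in Pr-LP, against 3587 in C4-HP, 3608 in C4-LP and 3133 in Pr-HP. In this list Krt19 had 223 units in Pr-LP and was under the floor elsewhere, and Krt7 had 2085 in Pr-LP, against 1235 to 1586. The part of such cells in the values below was not tested.

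In most ER folding genes the intensity was highest in C4-LP and lowest in Pr-LP, with C4-HP and Pr-HP between them. C4-LP was the highest population in 30 of the 38 genes (23% of all genes), and Pr-LP the lowest in 28 of 38 (26.7% of all genes). Both held in 22 of 38 genes, against 9.09% of all genes. Both clone 4 populations lay above both parental populations in 24 of 38 genes (16.9% of all genes), and in 0 of 38 did both lie below (18% of all genes). The median log2 difference of C4-LP minus Pr-LP was 0.69 over the 38 genes and -0.01 over all 12267 genes, of which the middle 90% lay between -0.53 and 0.60. Genes of this group are known to be regulated together and all counts rest on the same 4 populations, so the genes are not independent of each other. The counts of population order were added after the values had been seen. Among the 4373 brighter genes, with a mean of at least 500 units, C4-LP was highest in 25.2%, and in 27 of the 31 members that are as bright.

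**Figure D1:**
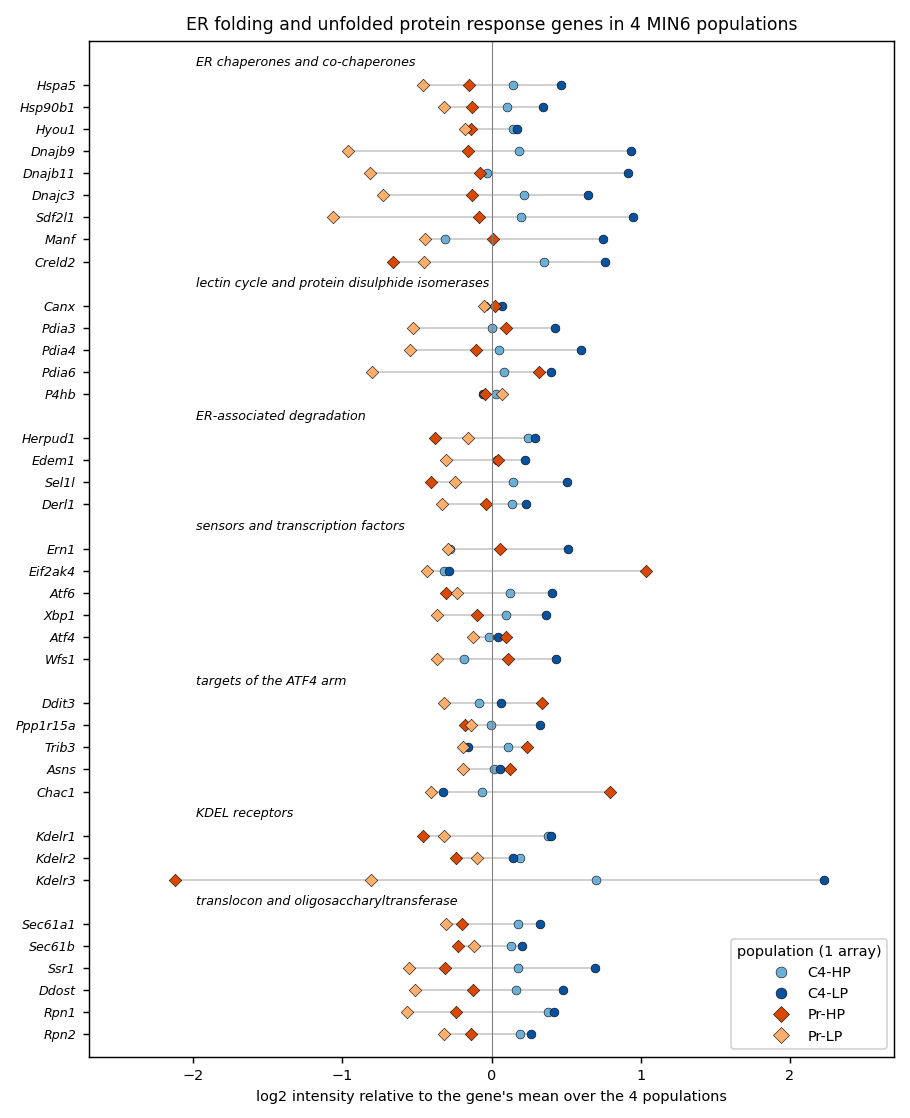
Log2 intensity of the 38 genes past the filter, relative to each gene's mean over the 4 populations, with 1 point per population (circles for clone 4, diamonds for parental cells) and genes grouped by role. The dark C4-LP circle lies farthest right in 30 genes and the pale Pr-LP diamond farthest left in 28, while Eif2ak4 and Chac1 stand out by their Pr-HP diamond.

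**Figure D2:**
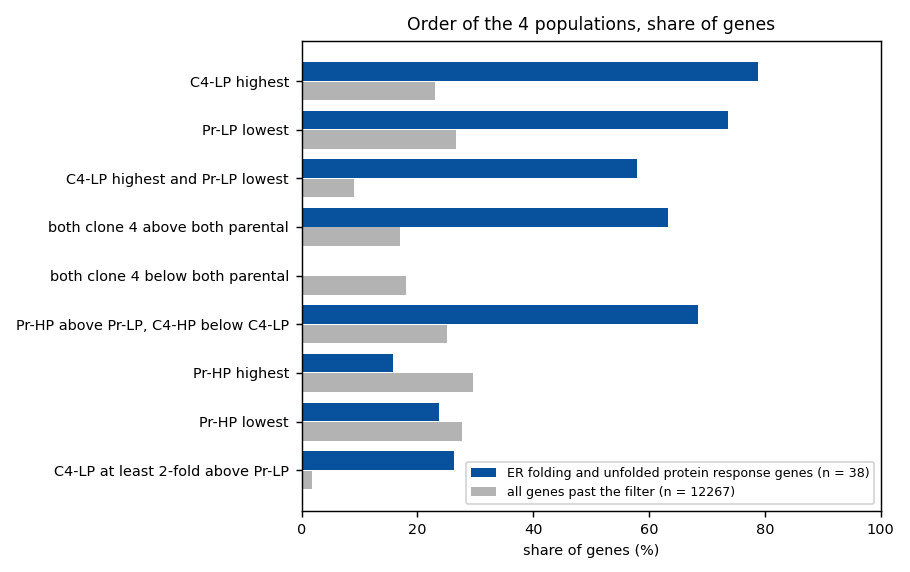
Share of genes (%) that show each order of the 4 populations, for the 38 ER folding and unfolded protein response genes (upper bars) and all 12267 genes past the filter (lower bars). C4-LP was highest in 78.9% of the 38 genes and in 23% of all genes.

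By limma, 0 of the 38 genes passed an adjusted p of 0.05 between clone 4 and parental cells (0% of all genes did), and the lowest adjusted p of a member was 0.924. In this fit both passages of a line stand as its samples. The spread behind each p and standard error (SE) thus includes passage and is not replicate error. At an unadjusted p under 0.05, 19 of the 38 genes were higher in clone 4 (3.33% of all genes) and 0 were lower (2.39% of all genes). The number at this p was 10 with no filter on dim probe sets (7.61% of all genes, both directions together). It was also 10 with passage as a block (5.08% of all genes). That limma fit was added after the values had been seen (lowest adjusted p of a member 0.999). Leaving out C4-LP or Pr-LP leaves 1 population on that side, so only the effect size is given here. The median log2 difference of clone 4 minus parental was 0.33 without C4-LP and 0.36 without Pr-LP, against 0.45 with all 4.

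Among the chaperones, Hspa5 (BiP), the Hsp70 of the ER and the chaperone that holds the sensors inactive, had 3867 units in C4-HP and 4840.3 in C4-LP, against 3158 in Pr-HP and 2546.5 in Pr-LP. Hsp90b1 (Grp94), the Hsp90 of the ER, had 4427 in C4-HP and 5242 in C4-LP, against 3772 in Pr-HP and 3312 in Pr-LP. Both clone 4 values of each gene lay above both parental values, and C4-LP stood at 1.90 and 1.58 times Pr-LP. For Hspa5 the log2 difference between clone 4 and parental cells was 0.61 ± 0.18 (SE, limma, adjusted p = 0.924). The promoter of Hspa5 is shown because it carries the ER stress response element (ERSE), the site through which Atf6 and Xbp1 act, whose 19 bases are in capitals. These are the 250 bases before the RefSeq start of the gene (GRCm38.p6, chr2:34771840-34772089, plus strand):
Hspa5: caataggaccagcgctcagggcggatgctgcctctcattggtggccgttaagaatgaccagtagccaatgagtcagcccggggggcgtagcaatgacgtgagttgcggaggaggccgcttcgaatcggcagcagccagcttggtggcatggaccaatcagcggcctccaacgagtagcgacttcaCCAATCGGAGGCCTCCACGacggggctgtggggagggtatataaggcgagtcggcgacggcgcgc

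The J-domain co-chaperones, which stimulate Hspa5, differed more than Hspa5 itself. Dnajb9 (ERdj4), a repressor of Ire1, had 954 units in C4-HP and 1609 in C4-LP, against 752 in Pr-HP and 432 in Pr-LP. Dnajb11 (ERdj3) had 296 in C4-HP and 571 in C4-LP, against 287 in Pr-HP and 172 in Pr-LP. Dnajc3 (p58IPK), an inhibitor of eIF2α kinases, had 698 in C4-HP and 939 in C4-LP, against 547.5 in Pr-HP and 363 in Pr-LP. In all 3 genes the order was C4-LP, C4-HP, Pr-HP, Pr-LP, although C4-HP and Pr-HP of Dnajb11 were only 1.03-fold apart. C4-LP exceeded Pr-LP 3.73-fold, 3.32-fold and 2.59-fold. A second probe set of Dnajb9 gave 1.97-fold, and 3 others of Dnajc3 gave 1.88-, 3.28- and 4.00-fold. In that of Dnajb9, C4-HP (733.6 units) lay just below Pr-HP (745.3). The Dnajc3 probe set with 3.28-fold passed the filter through its C4-LP value alone.

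Sdf2l1, a luminal partner of Dnajb11, had 1483 units in C4-HP and 2495 in C4-LP, against 1218 in Pr-HP and 618 in Pr-LP. Its 4.04-fold difference between C4-LP and Pr-LP was exceeded in this group only by that of Kdelr3. Manf, a secreted ER stress protein, had 1209 in C4-HP and 2515 in C4-LP, against 1511 in Pr-HP and 1099.9 in Pr-LP. Here C4-LP stood apart, and C4-HP lay below Pr-HP. Creld2, an ER protein induced by stress, had 1246 in C4-HP and 1655 in C4-LP, against 616.5 in Pr-HP and 715 in Pr-LP. It split by origin, with C4-HP 2.02 times Pr-HP and C4-LP 2.32 times Pr-LP. Hyou1, a nucleotide exchange factor of Hspa5, had the smallest differences of the chaperones, 1.28-fold between its highest and its lowest population.

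Between C4-LP and Pr-LP, 10 of the 38 genes were at least 2-fold higher in C4-LP (1.85% of all genes) and 0 at least 2-fold lower (1.19% of all genes). They are Kdelr3, Sdf2l1, Dnajb9, Dnajb11, Dnajc3, Ssr1, Creld2, Pdia6, Manf and Pdia4, and 6 of them are chaperones or co-chaperones. C4-LP lay above Pr-LP in 37 of 38 genes, the exception being P4hb. Of 28 further probe sets past the filter, of 14 of these genes, 27 were also higher in C4-LP and 8 at least 2-fold. Among them, a probe set each of Dnajc3, Edem1 and P4hb passed the filter through its C4-LP value alone. A probe set each of Kdelr3 and Atf6 passed through its clone 4 values alone. Nothing is read from the direction of these. Between C4-HP and Pr-HP, 2 genes were at least 2-fold higher in C4-HP, Creld2 and Kdelr3 (1.14% of all genes), and Eif2ak4 was at least 2-fold lower (1.75% of all genes). Eif2ak4 passed the filter through its Pr-HP value alone.

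**Figure D3:**
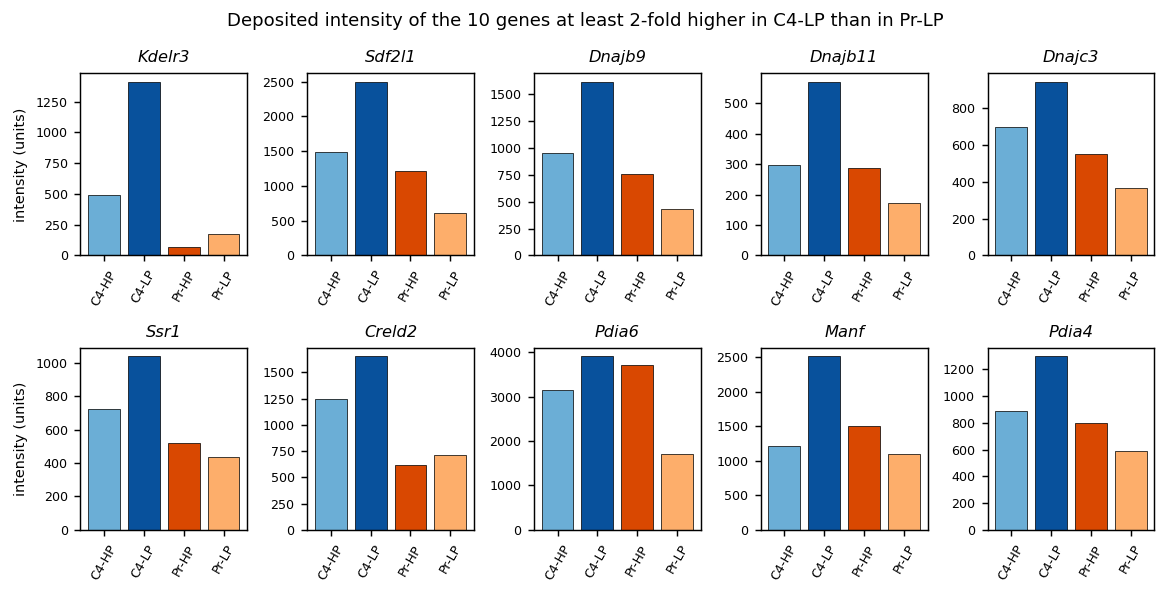
Deposited intensity (linear units) of the 10 genes at least 2-fold higher in C4-LP than in Pr-LP, with 1 bar per array and each axis starting at 0. C4-LP has the tallest bar in each gene, as in Sdf2l1 with 2495 units against 618 in Pr-LP, and Pr-HP exceeds C4-HP in Pdia6 and Manf.

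Promoters were searched for 4 motifs on both strands, in windows of 250 bases before and 50 after the RefSeq start, which were at hand for 35 of the 41 genes. The ERSE (CCAAT and CCACG with 9 bases between) was found in 8 of the 35 genes, Hspa5, Hsp90b1, Calr, Canx, Pdia6, Dnajc3, Creld2 and Syvn1, and in 0.119% of the 32851 windows of all genes. Its short form ERSE-II (ATTGG and CCACG with 1 base between) was found in Herpud1 and Dnajb11 and in 0.0365% of all windows. The core of the Xbp1 site (TGACGTGG) was found in Kdelr3 and in 0.676% of windows. The site of Atf4 with C/EBP factors (CARE, TGATGNAA) was found in Asns, Chac1, Trib3, Herpud1 and Kdelr1 and in 3.97% of windows. No match of 1 motif overlapped another in these genes. A match is a description of the letters in the window and does not show that a factor binds there. A selection follows, with at most 1 site a gene and none of those after the start (Dnajb11 and Trib3), and without the second ERSE of Hsp90b1, the CARE of Herpud1 and Kdelr1 and the ERSE of Calr and Syvn1. Sequences run 5′ to 3′ along the gene and have the match in capitals (GRCm38.p6, with the strand of the gene):
Hsp90b1 ERSE, chr10:86705623-86705671, minus: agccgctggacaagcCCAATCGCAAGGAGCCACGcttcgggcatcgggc
Pdia6 ERSE, chr12:17266476-17266524, plus: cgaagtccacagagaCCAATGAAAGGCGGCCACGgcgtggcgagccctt
Dnajc3 ERSE, chr14:118937812-118937860, plus: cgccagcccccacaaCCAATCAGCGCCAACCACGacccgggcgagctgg
Creld2 ERSE on the opposite strand, chr15:88819505-88819553, plus: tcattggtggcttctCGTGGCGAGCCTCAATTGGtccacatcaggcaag
Canx ERSE, chr11:50325785-50325833, minus: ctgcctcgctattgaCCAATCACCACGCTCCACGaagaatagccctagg
Herpud1 ERSE-II, chr8:94386362-94386402, plus: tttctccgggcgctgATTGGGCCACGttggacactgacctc
Kdelr3 Xbp1 core on the opposite strand, chr15:79516363-79516400, plus: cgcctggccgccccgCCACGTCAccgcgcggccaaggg
Asns CARE, chr6:7693210-7693247, minus: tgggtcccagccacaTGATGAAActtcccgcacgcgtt
Chac1 CARE on the opposite strand, chr2:119351034-119351071, plus: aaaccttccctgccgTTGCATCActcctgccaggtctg

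Genes with an ERSE differed among themselves. Dnajc3 and Creld2 were over 2-fold higher in C4-LP than in Pr-LP, while Canx differed 1.09-fold. The largest differences of the group, those of Kdelr3, Sdf2l1 and Dnajb9, were in genes with no ERSE match. The median log2 difference of C4-LP minus Pr-LP was 1.06 over the 8 measured genes with ERSE or ERSE-II (0.12 to 1.73) and 0.72 over the 24 with neither (-0.13 to 3.04). For the 5 genes with CARE it was 0.25.

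**Figure D4:**
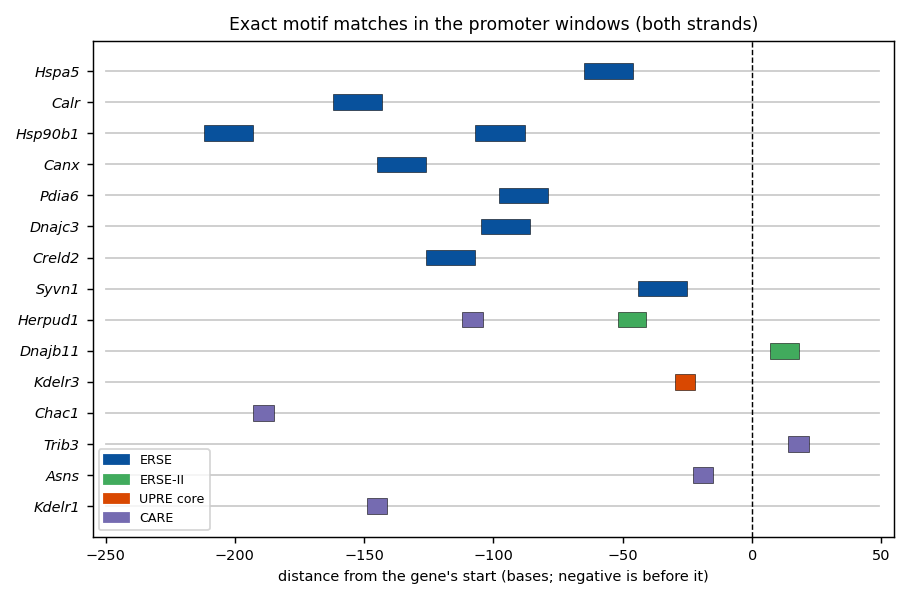
Exact motif matches in the promoter windows of 15 genes, by distance in bases from the start of the gene (dashed line), with 1 bar per match as long as the motif. The ERSE matches all lie before the start, and Hsp90b1 has 2 of them.

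Disulphide isomerases form and rearrange disulphide bonds, which proinsulin needs. Pdia6 had 3143 units in C4-HP and 3907 in C4-LP, against 3700.4 in Pr-HP and 1707 in Pr-LP. Pdia4 had 884 in C4-HP and 1298 in C4-LP, against 796.5 in Pr-HP and 587 in Pr-LP. Pdia3, which works with the lectin chaperones, had 1207 in C4-HP and 1621 in C4-LP, against 1293 in Pr-HP and 838 in Pr-LP. Pr-LP was the lowest population in each of these and C4-LP the highest. In Pdia6 and Pdia3 Pr-HP lay between the clone 4 values, so that the groups overlapped, and in Pdia4 they did not. The lectin chaperone Canx (1067 to 1158 units) and P4hb, the classical isomerase (4066 to 4455), differed by under 1.10-fold over all 4 populations. A dimmer probe set of P4hb (108.6 units in Pr-LP) gave C4-LP over Pr-LP as 1.79-fold. It passed the filter through its C4-LP value alone. Calr, the other lectin chaperone, lay under the floor on all 4 arrays (34.6 to 40.0 units), so that nothing can be said of its level.

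ER-associated degradation returns misfolded proteins to the cytosol. Here 3 of 4 measured genes had both clone 4 values above both parental values (16.9% of all genes). Sel1l, the scaffold of the Hrd1 ubiquitin ligase, had 439.5 units in C4-HP and 564 in C4-LP, against 300.4 in Pr-HP and 336 in Pr-LP. Herpud1 (Herp) had 996 in C4-HP and 1028 in C4-LP, against 647.5 in Pr-HP and 752 in Pr-LP. In both genes Pr-HP was the lowest population and the split followed origin. Derl1, a channel component, and Edem1, a mannosidase-like factor, had ranges of 1.48- and 1.44-fold between their highest and lowest populations. A second probe set of Derl1 had 540.7 units in C4-HP, below 564.2 in Pr-HP. The other probe sets of Edem1 gave 3.01-, 1.95-, 1.09- and 1.03-fold between C4-LP and Pr-LP, against 1.44-fold for the brightest. The probe set with 3.01-fold passed the filter through its C4-LP value alone.

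KDEL receptors return escaped chaperones, Hspa5 among them, to the ER. Kdelr3, the isoform best known as a stress target, had 487 units in C4-HP and 1409.6 in C4-LP, against 69.1 in Pr-HP and 171 in Pr-LP. Its range of 20.4-fold was the widest of the 38 genes, and its Pr-HP value lay just above the floor of 67.3 units. A second probe set gave C4-LP over Pr-LP as 3.70-fold, against 8.23-fold. It passed the filter through its clone 4 values alone. Kdelr1 had 5102 in C4-HP and 5167 in C4-LP, against 2852 in Pr-HP and 3136 in Pr-LP. Its clone 4 values differed by 0.987-fold and stood clear of the parental ones, with a log2 difference of 0.78 ± 0.10 (SE, limma, adjusted p = 0.924). In Kdelr2 the same order was narrower, with 358 in C4-HP and 347 in C4-LP, against 266 in Pr-HP and 293 in Pr-LP. All 3 receptors were lowest in Pr-HP (27.7% of all genes), while 1 of the 9 chaperones, Creld2, was.

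The translocon and the oligosaccharyltransferase take in and glycosylate nascent chains. Both clone 4 values lay above both parental values in 6 of 6 of their genes (16.9% of all genes). Ssr1, a subunit of the translocon-associated complex, had 726 units in C4-HP and 1039.8 in C4-LP, against 518 in Pr-HP and 439 in Pr-LP. Sec61a1, the channel itself, had 4171.5 in C4-HP and 4610.0 in C4-LP, against 3203 in Pr-HP and 2985 in Pr-LP. In both, C4-LP was highest and Pr-LP lowest. Rpn1, of the oligosaccharyltransferase, had 1750.4 in C4-HP and 1801 in C4-LP, against 1141 in Pr-HP and 909.9 in Pr-LP. Ddost, of the same enzyme, had 1068 in C4-HP and 1326 in C4-LP, against 875 in Pr-HP and 667.5 in Pr-LP. These 2 subunits were 1.98- and 1.99-fold higher in C4-LP than in Pr-LP, just short of 2-fold. Rpn2 and Sec61b had ranges of 1.49- and 1.35-fold in the same direction between clone 4 and parental cells. A dimmer probe set of Rpn2 had C4-LP (356.5 units) below Pr-HP (364.6), while another kept both clone 4 values above both parental ones. For Ssr1, 4 further probe sets gave up to 2.58-fold between C4-LP and Pr-LP, each with both clone 4 values above both parental ones.

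Among the sensors and factors, Xbp1 had 1241 units in C4-HP and 1493 in C4-LP, against 1083 in Pr-HP and 901 in Pr-LP. The values do not give the spliced share of Xbp1 RNA, which makes the active factor. Atf6 had 259 in C4-HP and 315 in C4-LP, against 192 in Pr-HP and 203 in Pr-LP. Both genes were higher in both clone 4 populations. Ern1, the sensor that splices Xbp1, had 598 in C4-HP and 1033 in C4-LP, against 753 in Pr-HP and 590.4 in Pr-LP. Wfs1, an ER membrane protein that restrains Atf6 and whose loss causes diabetes, had 714 in C4-HP and 1094 in C4-LP, against 876.5 in Pr-HP and 630.4 in Pr-LP. In these 2, C4-HP lay below Pr-HP, so that the clone 4 and parental ranges overlapped. Eif2ak3 (Perk) had 92.6 in C4-HP and 140.9 in C4-LP, against 102.6 in Pr-HP and 76.6 in Pr-LP, but no value reached the 152.7 units that the filter asked for on chip A.

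In 4 of the 5 measured targets of Atf4, and in Atf4 itself, Pr-HP was the highest population (29.6% of all genes). Atf4 had 2187.5 units in Pr-HP, against 2025 in C4-HP, 2108 in C4-LP and 1881 in Pr-LP, a range of 1.16-fold. Chac1, a glutathione-degrading enzyme, had 1237 in Pr-HP, against 682 in C4-HP, 569 in C4-LP and 537 in Pr-LP. Ddit3 (Chop) had 564 in Pr-HP, against 422 in C4-HP, 466 in C4-LP and 358 in Pr-LP. In Chac1 Pr-HP stood clear of the other populations. In Ddit3 Pr-HP was the highest, but the responder cells themselves ranged from 358 to 466 units. Asns, an asparagine synthetase (4910 to 6115), and Trib3, a pseudokinase that binds Akt (216 to 290.5), spanned only 1.25- and 1.34-fold. Asns had 4 further probe sets, whose C4-LP over Pr-LP ratios lay between 0.971 and 1.07. Ppp1r15a (Gadd34), the phosphatase subunit that reverses eIF2α phosphorylation, differed from these, with 507 in C4-HP and 636 in C4-LP, against 450.0 in Pr-HP and 462 in Pr-LP, so that both clone 4 values lay above both parental ones. Eif2ak4 (Gcn2), the kinase that senses amino acid lack, had 210.0 in Pr-HP, against 82.2 in C4-HP, 84.0 in C4-LP and 75.7 in Pr-LP. Its values outside Pr-HP were close to the floor of 67.3 units.

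Of the 38 genes, 6 were highest in Pr-HP (29.6% of all genes), namely Eif2ak4, Atf4, Ddit3, Trib3, Asns and Chac1, and 9 were lowest there (27.7% of all genes). In limma, 0 of 38 passed between Pr-HP and the responder cells (0.0815% of all genes did). The log2 difference of Chac1 was 1.06 ± 0.17 (SE, limma, adjusted p = 0.246). Eif2ak4 had the lowest adjusted p of the 38 (0.0992, limma), but it passed the filter through its Pr-HP value alone, so nothing is read from this test. With the floor at the 40th percentile its log2 difference of Pr-HP minus Pr-LP was 0.46, against 1.47. At an unadjusted p under 0.05 these 2 genes were higher in Pr-HP (5.7% of all genes), and 0 were lower (4.24% of all genes). Without Pr-LP, which leaves Pr-HP against clone 4 alone, the median log2 difference over the members was -0.36, against -0.15 with all 4 populations. Pr-HP is 1 array in the limma fit and is assumed to vary like the others. The SE of Chac1 rests on the spread between the responder populations, which includes origin and passage. RNA quality can be read from Gapdh, as its 3′ signal over its 5′ signal, and this ratio was smallest in Pr-HP on chips A, B and C (0.867, 0.953 and 1.16, against 0.968 to 1.05, 1.01 to 1.09 and 1.19 to 1.31 in the responder cells). For β-actin the ratio was 1.15, 1.28 and 1.34 in Pr-HP, against 1.25 to 1.43, 1.39 to 1.42 and 1.30 to 1.42, so that it was not the smallest on chip C. In Pr-LP the ratio was the largest of the 4 populations on chip A for both controls (1.05 for Gapdh and 1.43 for β-actin). On chip B it was not (1.01 and 1.39, against 1.09 and 1.42 in C4-HP), and on chip C it was so for β-actin alone (1.42). The part of RNA quality in these values was not tested.

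High passage had opposite signs in the parental and clone 4 lines. The median log2 difference of Pr-HP minus Pr-LP was 0.30 over the 38 genes, with 28 above 0, and that of C4-HP minus C4-LP was -0.26, with 34 below 0. Over all genes both medians were under 0.01 in size. In 26 of the 38 genes Pr-HP was above Pr-LP and C4-HP below C4-LP (25.1% of all genes). The 22 genes with C4-LP highest and Pr-LP lowest must show this, so the count is not separate from that order. The difference between the lines has no test, since each rests on 1 array against 1. Past 2-fold, 3 genes were higher in Pr-HP than in Pr-LP (Pdia6, Eif2ak4 and Chac1, 2.08% of all genes) and Kdelr3 was lower (1.62% of all genes). Of these, Eif2ak4 passed the filter through its Pr-HP value alone. Between C4-HP and C4-LP, 0 genes were at least 2-fold higher (0.367% of all genes), and Manf and Kdelr3 were at least 2-fold lower in C4-HP (1% of all genes). Limma between high and low passage called 0 of 38 genes (0% of all genes), and its spread includes origin. At an unadjusted p under 0.05 it had Trib3 as higher (1.67% of all genes) and 0 as lower (2.05% of all genes). With line as a block the numbers at this p were 0 higher and 1 lower (3.73% of all genes, both directions together). The median log2 difference of high minus low passage was 0.34 without C4-LP and -0.36 without Pr-LP, against -0.01 with all 4 populations.

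**Figure D5:**
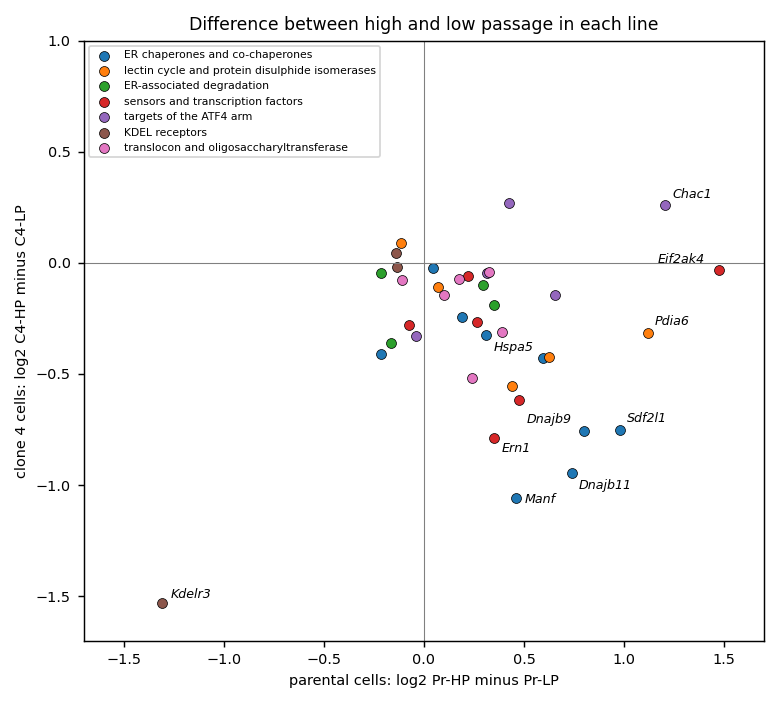
Log2 difference between high and low passage in parental cells (horizontal axis) and in clone 4 cells (vertical axis), with 1 point for each of the 38 genes, coloured by role. Most points (26) lie at the lower right, higher at high passage in parental and lower in clone 4 cells, with Kdelr3 lower in both and Chac1 higher in both.

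Other genes of the pathway were looked at in lists that share no gene with the 41. Both clone 4 values lay above both parental values in 16 of 19 measured genes of N-glycosylation, 24 of 29 of ER to Golgi traffic and 13 of 19 of translocation and signal cleavage. The number was 10 of 21 for degradation and quality control and 11 of 24 for disulphide formation and other ER chaperones, against 16.9% of all genes. It was 5 of 20 for cytosolic and mitochondrial chaperones, 5 of 30 for Atf4 targets and eIF2α kinases, 2 of 12 for other genes of the Atf6 and Ire1 arms and 1 of 11 for β-cell genes. C4-LP highest with Pr-LP lowest held in fewer genes of the first 3 lists, 10 of 19, 12 of 29 and 10 of 19 (9.09% of all genes). The median log2 difference of C4-LP minus Pr-LP was 0.76, 0.71 and 0.53 for the first 3 lists and 0.15, 0.24, -0.03 and 0.07 for the last 4. No gene of the lists in this paragraph passed limma in any of the 3 comparisons. Cd68, of the cell type markers above, did so between Pr-HP and the responder cells, where Pr-HP is 1 array.

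Nucb2, a calcium-binding protein of the secretory pathway, had 268 units in C4-HP and 674 in C4-LP, against 111.4 in Pr-HP and 113.9 in Pr-LP. The ER prolyl isomerase Fkbp11 had 697 in C4-HP and 1792 in C4-LP, against 394 in Pr-HP and 398 in Pr-LP. These 2 had the largest C4-LP over Pr-LP ratios of the lists, 5.91- and 4.51-fold, and their parental values were nearly equal. In the same comparison, the genes past 2-fold included Erp44 (2.18-fold) of the disulphide list, Creb3l3 (2.42-fold) of the Atf6 and Ire1 arms, Edem2 (2.93-fold), Erlec1 (2.46-fold) and Derl3 (2.38-fold) of degradation, Ssr3 (2.40-fold) of the translocon and Alg5 (2.88-fold), Pgm3 (2.14-fold) and Dad1 (2.02-fold) of glycosylation. In traffic they were Bet1 (2.25-fold), Lman2 (2.23-fold), Tmed9 (2.11-fold) and Mcfd2 (2.03-fold), of which Lman2 was highest in Pr-HP (1216 units). Sec22b, also of traffic, was 2.08-fold higher in C4-HP than in Pr-HP, and Pdia5, an isomerase, 2.21-fold. Bbc3, a pro-apoptotic target of the stress arms, had 77.4 units in C4-LP, against 175 in Pr-LP. Of the β-cell genes, Slc2a2 was 3.78-fold higher in C4-HP than in C4-LP, and Pcsk1 3.25-fold higher in Pr-HP than in Pr-LP. Neurod1 had 604 units in Pr-LP, against 211 in Pr-HP, 288 in C4-HP and 264 in C4-LP. Ero1a, the oxidase that recharges the disulphide isomerases, stood apart with 4003 units in Pr-HP, against 1898 in C4-HP, 2693 in C4-LP and 1804 in Pr-LP.

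Among Atf4 targets and eIF2α kinases outside the group, 4 of 30 were at least 2-fold higher in Pr-HP than in Pr-LP (2.08% of all genes). In the same comparison 1 was at least 2-fold lower (1.62% of all genes). Atf5, a factor made under eIF2α phosphorylation, had 1332 units in Pr-HP, against 832 in C4-HP, 792 in C4-LP and 456 in Pr-LP. Nupr1, a stress-induced nuclear protein, had 358 in Pr-HP, against 179 in C4-HP, 272 in C4-LP and 139 in Pr-LP. Pr-HP was the highest population in 17 of the 30 measured genes of this list, against 29.6% of all genes. Pr-LP was the lowest in 19 of the 30, against 26.7% of all genes. The others past 2-fold were Stc2, a secreted glycoprotein, with 2.04-fold, and Wars, a tRNA synthetase. Stc2 had 357 units in Pr-HP, against 173 in C4-HP, 324 in C4-LP and 175 in Pr-LP. Wars had 3438 in Pr-HP, against 2895 in C4-HP, 2646 in C4-LP and 1603 in Pr-LP. Sesn2 went the other way, with 207 in Pr-HP, against 365 in C4-HP, 223 in C4-LP and 438 in Pr-LP. Among cytosolic heat shock genes, Hspa1a had 659 in Pr-HP, against 273 in C4-HP, 184.5 in C4-LP and 383.5 in Pr-LP. Its near-identical copy Hspa1b, with 483 in Pr-HP, against 197 in C4-HP, 85.6 in C4-LP and 233 in Pr-LP, can share its signal. Bag3, its co-chaperone, was highest in C4-LP instead, with 874 units against 268 to 321 in the others.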

How the data were processed

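Total RNA of each population was labelled with biotin and hybridised to chips A, B and C. The authors deposited 1 intensity for each probe set and array on a linear scale, made with the GeneChip software. The summary of probes and the normalization were not given in the sources used here, and the nearly equal medians within a chip show that arrays had been brought to 1 scale. The 3 chips hold 36899 probe sets. Controls (198) were removed, and 29131 others carry 1 gene symbol in the platform annotation. A gene was represented by its probe set with the highest mean. Probe sets with at least 1 array above the 40th percentile of the chip were tested (23340), on log2 values with a floor at the 20th percentile. Tests used limma 3.58.1 in R 4.3.3 (lmFit and eBayes) within each chip, with Benjamini-Hochberg adjustment over the 3 chips, 2 residual degrees of freedom and 1.93 to 2.48 prior degrees of freedom, and the fit was tested on simulated data. Ratios of 1 array to another have no test. Printed for all 4 populations are members whose highest and lowest populations differ by at least 1.5-fold, and Atf4, Kdelr2 and Ppp1r15a. From the other lists, genes past 2-fold in a comparison were named, at most the 5 with the largest difference a list, and Nucb1 and Krtcap2 for their motif. Members and lists were chosen with earlier results of these data known. Precision is limited by the number of arrays. Promoter windows and gene starts are from RefSeq on GRCm38.p6, matched by symbol, and files were not aligned to it. Alternatives were other floors, quantile normalization, passage or line as a block, other probe set rules, no filter, a limit of 1.5-fold and leaving out each population.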

Additional observations from a re-analysis of the deposited data

Results flagged for a closer look

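In 3 genes the difference between high and low passage had opposite signs in the parental and clone 4 lines and exceeded 1.5-fold in both. For Dnajb9 the log2 difference was 0.80 for Pr-HP against Pr-LP and -0.75 for C4-HP against C4-LP. For Dnajb11 it was 0.74 in parental and -0.95 in clone 4 cells, and for Sdf2l1 0.98 and -0.75. Each side is 1 array against 1, and the difference between the lines was not tested.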

How the results depend on the processing

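Limma called 0 of the members in each of its 3 comparisons with the other floors, no filter, quantile normalization, suffixed probe sets left out, and without each population in turn (except Pr-HP in its own comparison), where 1 residual degree of freedom is left. It was not run on the mean of all probe sets. The lowest adjusted p of a member over these fits was 0.0971 to 0.515 for Pr-HP against responder cells, 0.204 to 1 for clone 4 against parental and 0.515 to 1 for high against low passage. The median log2 difference of clone 4 minus parental was 0.33 without C4-LP and 0.59 without C4-HP, against 0.45 with all 4, and without Pr-LP this comparison is that of clone 4 with Pr-HP alone. For high against low passage it was 0.34 without C4-LP and -0.36 without Pr-LP. For Pr-HP against responder cells it turned from -0.15 to 0.06 without C4-LP. At a limit of 1.5-fold, 9 members were higher in Pr-HP than Pr-LP, 22 in C4-LP than Pr-LP and 5 in C4-HP than Pr-HP. Those lower in C4-HP were 7 against C4-LP and 2 against Pr-HP. The share of all genes at this limit was not counted, so nothing is read from these numbers. With the floor at the 40th percentile 0 members were 2-fold lower in Pr-HP than Pr-LP and 0 lower in C4-HP than Pr-HP, because Kdelr3 and Eif2ak4 lie near the floor. With suffixed probe sets left out, which removes Kdelr3, 0 were lower in Pr-HP than Pr-LP, 1 lower in C4-HP than C4-LP and 1 higher in C4-HP than Pr-HP. With the mean of all probe sets 0 were lower in Pr-HP than Pr-LP, and 8 were higher in C4-LP than Pr-LP, Dnajc3 and Ssr1 no longer among them. Of single genes' differences 749 stayed on their side of 2-fold, 6 lost it and 1 gained it. The labels give no replicate numbers that pair arrays. Line and passage in 1 additive fit, added after seeing the data, called 0 members, with a lowest adjusted p of 0.999 for clone 4 against parental and 0.998 for high against low passage.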

Other observations

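Outside the described genes, 10 other genes with an ERSE in the promoter window passed the filter. Their median log2 difference of C4-LP minus Pr-LP was 0.02, and 1 of them, Derl3, was at least 2-fold higher in C4-LP. Of 7 other genes with ERSE-II, Nucb1 and Krtcap2 were at least 2-fold higher and the median was 0.04. For 110 other genes with the Xbp1 core and 262 with CARE the medians were 0.10 and 0.02.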
